A study of Mus musculus with 6 samples.

Results

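The genes described here encode the subunits of chromatin remodelling complexes, and they were followed in newly made RNA of mouse embryonic stem cells after the loss of the zinc finger protein ZFP207. They were chosen by name from the BAF, ISWI, CHD and NuRD, and INO80 and SRCAP families. All 48 were found among the 55401 gene rows of the count table, with 1 row each, and all 48 were among the 17573 genes with enough counts to test. RNA was labelled with 4-thiouridine (4sU), a uridine analogue that cells build into RNA while it is present, and the labelled RNA was captured on beads through biotin. The depleted group was 3 libraries from cells given indole-3-acetic acid (IAA) for 5 h, a plant hormone that sends a protein carrying an auxin-inducible degron (AID) to the proteasome. The control group was 3 libraries without IAA. All 6 libraries came from embryonic stem cells of the 129/Ola line. The treatment protocol names ZFP207AID cells with or without IAA, whereas the genotype label reads WT for the controls and degradation of ZFP207 for the others. With untagged controls, the 2 groups would differ in cell line as well as in IAA. The labels do not say whether the degron line is 1 clone or how long the 4sU pulse lasted. Effects of IAA itself cannot be told apart from those of losing ZFP207, since no degron-free cells given IAA were analysed here.

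Chromatin remodellers use the energy of ATP to slide, evict or exchange the nucleosomes around which DNA is wound. Each complex is built around an ATPase of the SNF2 family, and other subunits set where it acts. BAF complexes open enhancers and promoters, ISWI complexes space nucleosomes, NuRD couples remodelling with the removal of histone acetyl groups, and INO80, SRCAP and p400 complexes handle the histone variant H2A.Z. In embryonic stem cells BAF is known to be built on BRG1, the product of Smarca4, and both BAF and NuRD are known to shape how these cells leave pluripotency.

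Libraries held between 14336811 and 23385133 counts in the depleted group and between 17613103 and 25916628 in the control group. Libraries that share a replicate number deviated from their group means in the same way, so the number was treated as a pair. Each result is given from an edgeR fit without the pairs (the unpaired fit) and from the same fit with the replicate number as a block (the block fit). A gene was called at an adjusted p under 0.05 over all 17573 genes. "Rose" and "fell" stand for calls of the block fit. Levels are CPM, counts scaled to one common library total after edgeR's TMM correction, given per library in the order of replicates 1 to 3, and fold changes are depleted over control. The degron removes protein, so Zfp207 RNA does not check the labels, and it was 0.29 higher on the log2 scale in the block fit (edgeR adjusted p = 0.0196, unpaired 0.823). The libraries of replicate 2 were the highest of each group on the first principal component (32.4% of the variance). They were at 31.9 in depleted and 83.5 in control cells, against values between -65.7 and -3.58 elsewhere. On the second component (25.8%) the groups were apart, at 19.2 to 71.3 in depleted and -54.3 to -12.4 in control libraries. The 8 embryonic stem cell markers summed to 3876 to 4372 CPM in depleted and 3547 to 3969 CPM in control libraries, and 2 of them, Klf4 and Utf1, rose. The 7 fibroblast feeder markers summed to 2.87 to 4.47 CPM in depleted and 2.49 to 8.94 CPM in control libraries, with Col3a1, Postn, Lum and Dcn at 0 in all 6. Endoderm, neural and mesoderm markers had no called member in either fit, and the mesoderm gene T was at 0 in all 6 libraries.

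After 5 h of IAA most remodelling genes were not called, and the few that changed lay in different complexes. In the block fit 6 of 48 members rose and 3 fell, against 4.96% of all tested genes higher and 7.90% lower (12.9% either way). The genes that rose were the BAF subunit genes Smarcd2, Smarce1 and Dpf2, the ISWI-associated gene Baz2a and the NuRD genes Mta2 and Gatad2a. The genes that fell were Mta1 of NuRD, Bcl7c of BAF and the ATPase gene Ino80. Fold changes were small, with 36 of 48 members within 1.2-fold either way in the block fit. Of all 17573 tested genes, 8412 lay within that bound. In bulk samples fewer cells of a type and less RNA per cell cannot be told apart. The largest fall among called members was that of Mta1, by 1.71-fold, and the largest rise was that of Smarcd2, by 1.33-fold.

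**Figure D1:**
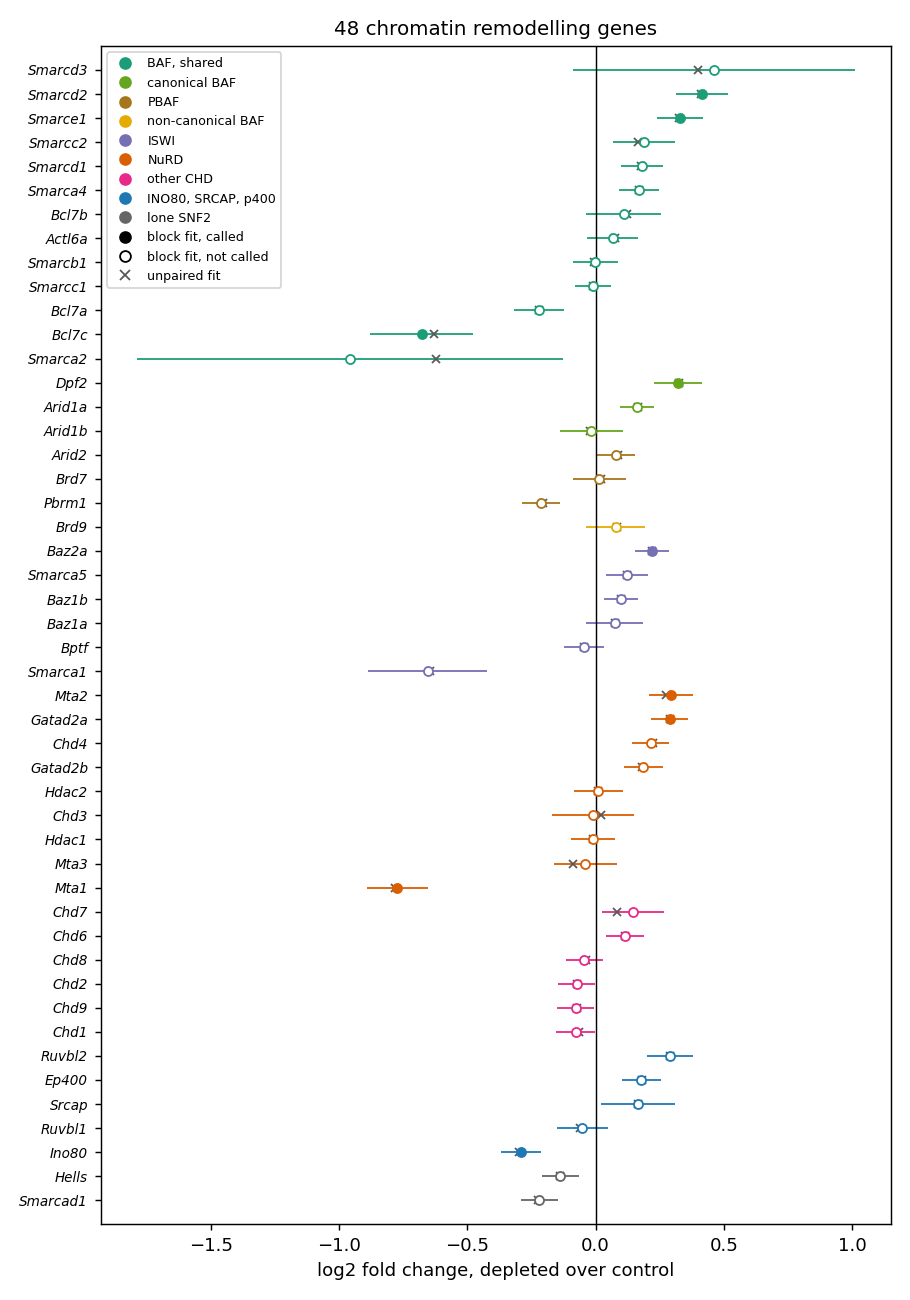
Log2 fold change (x axis, depleted over control) of the 48 remodelling genes, one per line and coloured by family. Circles are the block fit with its standard error, filled where called, and crosses are the unpaired fit. Most circles lie near 0, with Mta1, Bcl7c, Smarca1 and Smarca2 to the far left, of which Smarca1 and Smarca2 were not called.

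The unpaired fit called 0 of 48 members, with 0.0114% of all genes called higher and 0.780% lower (0.791% either way), and the lowest adjusted p of a member was 0.378. At an unadjusted p under 0.05 it held 2 members, Smarcd2 and Smarca1, where 10.9% of all genes were under that value. DESeq2 without the pairs also called 0 members, with 0.353% of all genes called higher and 3.29% lower (3.65% either way). In the block fit 20 members had an unadjusted p under 0.05, where 27.9% of all genes did. Of the members, 27 were above 0 and 21 below in the block fit, against 9130 and 8443 of all genes. The median log2 fold change of the members was 0.07 in each edgeR fit, against 0.02 over all genes. Single libraries decided much of this unpaired median, which was 0.0076 without depleted replicate 2, 0.020 without control replicate 3 and 0.028 without depleted replicate 1. Its gap from the median of all genes was 0.050 with all libraries, and it was 0.018, 0.0035 and 0.0073 with those same libraries omitted. The median standard error of a member was 0.09 in the block fit and 0.16 in the unpaired fit, against 0.20 and 0.31 over all genes. Over the replicate pairs the members' median was 0.04 ± 0.04, and that of all genes 0.007 ± 0.033 (mean ± SD, n = 3). In pairs 1, 2 and 3 the members' median was 0.078, 0.034 and 0.0055, against -0.011, 0.045 and -0.012 over all genes. It thus lay below that of all genes in pair 2.

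Without any model, 17 members were higher in the depleted library of all 3 pairs, where 24.2% of all genes were, and 8 were lower in all 3, where 24.1% were. The depleted and control libraries did not overlap for 5 higher members (6.94% of all genes) and 3 lower ones (11.8%). Those higher without overlap were Smarcd2, Smarce1, Dpf2, Baz2a and Gatad2a, and those lower were Bcl7c, Smarca1 and Ino80. Thus Mta1 and Mta2 were called from the difference within pairs, while their groups overlapped.

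NuRD joins the ATPases encoded by Chd3 and Chd4 with histone deacetylases and the MTA scaffold proteins, and of its 9 measured genes 2 rose, 1 fell and 6 were not called. Mta1, a scaffold gene of the deacetylase module, had 42.7, 19.8 and 26.2 CPM in depleted libraries, against 73.5, 32.3 and 46.7 CPM in control libraries. It was lower in each pair by a similar proportion, although depleted replicate 1 lay above control replicate 2. The block fit gave a log2 fold change of -0.77 (SE 0.12, edgeR adjusted p = 0.00131) and the unpaired fit one of -0.78 (SE 0.35, edgeR adjusted p = 0.470). Mta1 was the only one of the 9 called members whose block call held when any pair was left out, with adjusted p of 0.0111, 0.00358 and 0.0175 without pairs 1, 2 and 3. Leaving out single libraries moved the uncalled unpaired value of Mta1 between -1.14 (depleted replicate 1 omitted) and -0.41 (control replicate 1 omitted). Mta2, its paralog, had 202, 165 and 208 CPM in depleted libraries, against 179, 117 and 179 CPM in control libraries. The replicate 2 libraries were the lowest of each group, and Mta2 was higher in the depleted library of every pair. The block fit gave a log2 fold change of 0.29 (SE 0.08, edgeR adjusted p = 0.0375) and the unpaired fit one of 0.28 (edgeR adjusted p = 0.673), which was 0.10 without control replicate 2. The third scaffold gene, Mta3, was not called, at a block log2 fold change of -0.04 (SE 0.12).

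Gatad2a, which encodes a p66 subunit that links the MBD protein to the ATPase, had 355, 309 and 351 CPM in depleted libraries, against 304, 258 and 268 CPM in control libraries. All depleted values lay above all control values. The block fit gave a log2 fold change of 0.29 (SE 0.07, edgeR adjusted p = 0.0196) and the unpaired fit one of 0.29 (edgeR adjusted p = 0.494). Its paralog Gatad2b was 0.19 (SE 0.07) and was not called. The NuRD ATPase gene Chd4 had 452, 550 and 401 CPM in depleted libraries, against 387, 436 and 378 CPM in control libraries. It was higher in all 3 pairs but the groups overlapped, and its log2 fold change of 0.21 (SE 0.07, edgeR adjusted p = 0.0725) was not called. Chd3, the other NuRD ATPase gene, had 10.4, 34.7 and 26.2 CPM in depleted libraries, against 12.5, 37.0 and 20.9 CPM in control libraries. Replicate 2 was highest and replicate 1 lowest in both groups (block log2 fold change -0.01, SE 0.16). The deacetylase genes Hdac1 and Hdac2 had log2 fold changes of -0.01 (SE 0.09) and 0.01 (SE 0.10) in the block fit. Without pair 1, 2 or 3 the block fit gave Mta2 adjusted p of 0.0658, 0.176 and 0.0941, so that its call was lost in each case. Gatad2a lost its call without pair 1 (0.0552) and pair 3 (0.153).

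The sequences upstream of the 3 called NuRD genes are shown because paralogs and partners of 1 complex moved in opposite directions there. They are RefSeq sequences of GRCm38.p6, the 250 bases before the first start that the promoter table lists for each gene, 5′ to 3′ on the coding strand. That start can lie inside the gene's interval in the RefSeq gene table: the last 30 bases of the Mta1 stretch and the last 18 of the Gatad2a stretch do, and none of the Mta2 stretch. Mta1 is at chr12:113098028-113098277 on the plus strand, Mta2 at chr19:8941670-8941919 on the plus strand and Gatad2a at chr8:69996385-69996634 on the minus strand. Capitals mark matches on either strand to the GC box GGGCGG, the CCAAT box CCAAT, the ETS core CCGGAAG, the E-box CACGTG, the core TGACGT of the cyclic AMP response element and the TATA box TATAAA.
Mta1: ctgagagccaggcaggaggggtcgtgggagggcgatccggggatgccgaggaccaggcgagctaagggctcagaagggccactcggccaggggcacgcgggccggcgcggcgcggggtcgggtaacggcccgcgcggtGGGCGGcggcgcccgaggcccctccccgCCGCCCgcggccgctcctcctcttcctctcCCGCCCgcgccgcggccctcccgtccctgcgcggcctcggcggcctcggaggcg
Mta2: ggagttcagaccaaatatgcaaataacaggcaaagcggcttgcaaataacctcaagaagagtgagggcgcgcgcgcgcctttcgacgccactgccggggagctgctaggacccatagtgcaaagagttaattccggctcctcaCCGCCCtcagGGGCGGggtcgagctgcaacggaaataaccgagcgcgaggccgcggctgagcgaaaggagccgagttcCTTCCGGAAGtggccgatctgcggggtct
Gatad2a: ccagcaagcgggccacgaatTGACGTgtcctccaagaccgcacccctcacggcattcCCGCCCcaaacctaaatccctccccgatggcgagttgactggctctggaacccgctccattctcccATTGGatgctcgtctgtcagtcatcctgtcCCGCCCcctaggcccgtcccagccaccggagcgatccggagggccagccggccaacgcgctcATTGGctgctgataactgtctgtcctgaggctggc
The Mta1 stretch is 80.8% G and C and holds 3 GC boxes and none of the other motifs. The Mta2 stretch is 60.4% G and C and holds 2 GC boxes and 2 ETS cores, which overlap each other as a palindrome. The Gatad2a stretch is 64% G and C, with 2 GC boxes, 2 CCAAT boxes and 1 TGACGT, and that gene has 2 starts in the table. Of the 27025 genes with such a stretch, 32.9% hold a GC box, 34.5% a CCAAT box, 7.05% an ETS core, 6.05% an E-box, 6.56% TGACGT and 13.0% a TATA box. Of the 38 members with one, 33 hold a GC box, 10 a CCAAT box, 4 an ETS core, 4 an E-box, 3 TGACGT and 2 a TATA box. The median share of G and C is 65.8% in these members and 52% over the 27025 genes. The 27025 were not limited to genes tested here, whereas all members were tested. The gaps may therefore not be particular to remodelling genes. A match describes letters and not a bound site, and no binding was measured here.

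**Figure D2:**
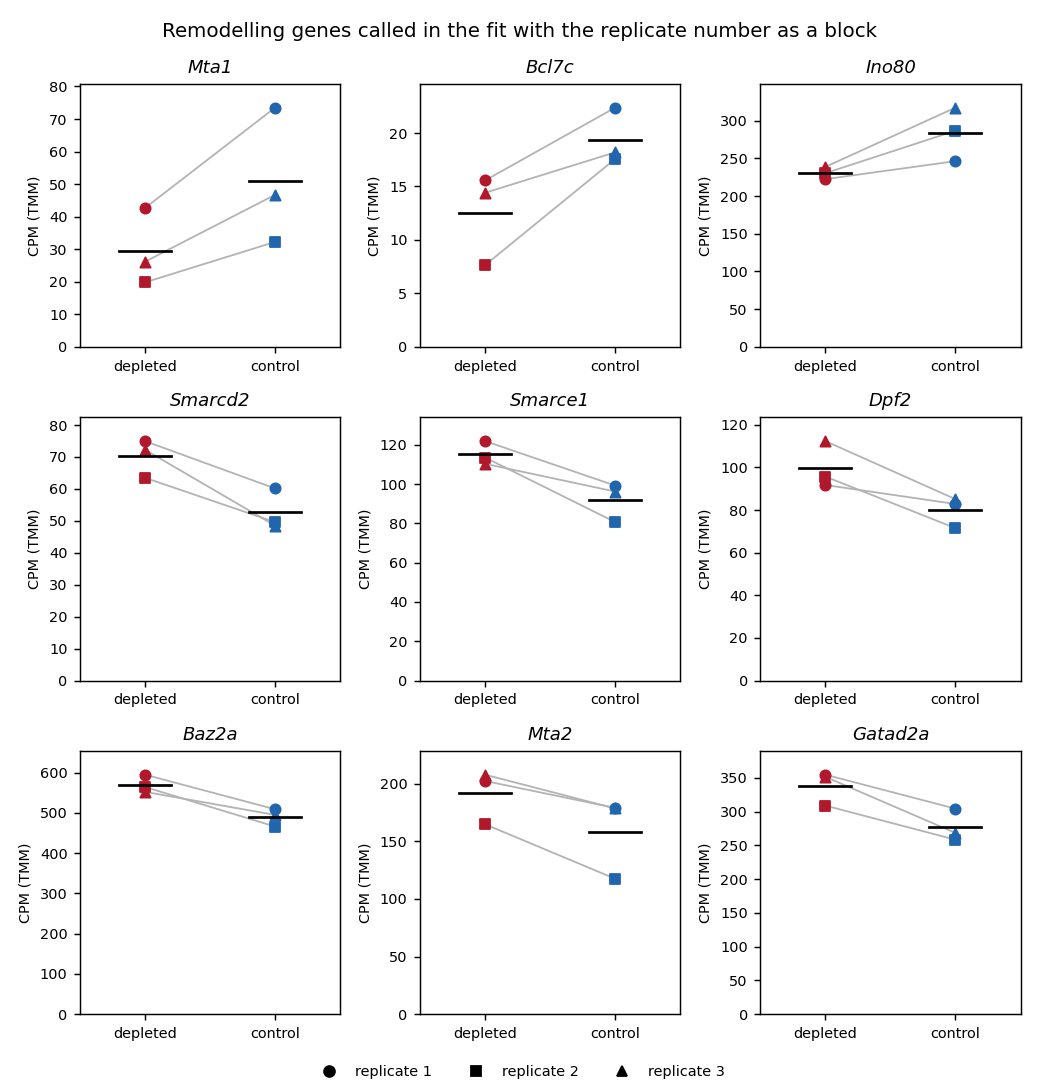
CPM of the 9 members called in the block fit, depleted at left and control at right, with a marker per replicate number, grey lines joining libraries of the same number and black bars at the means. All 3 lines of Mta1, Bcl7c and Ino80 run lower on the depleted side, and all 3 lines of the other genes run higher there.

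The BAF complex was represented by 20 genes, of which 3 rose and 1 fell in the block fit. Smarcd2, which encodes a BAF60 subunit that contacts transcription factors, had 74.9, 63.5 and 72.2 CPM in depleted libraries, against 60.1, 49.6 and 48.5 CPM in control libraries. The groups did not overlap. The block fit gave a log2 fold change of 0.42 (SE 0.10, edgeR adjusted p = 0.0191) and the unpaired fit one of 0.41 (SE 0.16, edgeR adjusted p = 0.378). Smarce1, which encodes the HMG-domain subunit BAF57, had 122, 113 and 110 CPM in depleted libraries, against 99.2, 80.6 and 96.1 CPM in control libraries, again without overlap (block log2 fold change 0.33, SE 0.09, edgeR adjusted p = 0.0310, unpaired 0.465). Dpf2, whose PHD-finger protein marks canonical BAF, had 91.7, 95.7 and 112 CPM in depleted libraries, against 82.8, 71.5 and 85.1 CPM in control libraries. The lowest depleted value thus stayed above the highest control value (block log2 fold change 0.32, SE 0.09, edgeR adjusted p = 0.0394, unpaired 0.493).

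Bcl7c, which encodes a small accessory subunit of BAF, had 15.6, 7.67 and 14.4 CPM in depleted libraries, against 22.4, 17.6 and 18.2 CPM in control libraries. All depleted values were below all control values, and replicate 2 had the widest gap. The block fit gave a log2 fold change of -0.68 (SE 0.20, edgeR adjusted p = 0.0426) and the unpaired fit one of -0.63 (SE 0.29, edgeR adjusted p = 0.491). The interval of Bcl7c also holds Gm39090 and Mir762, and reads of overlapping genes cannot be told apart without a stated strand. Smarcd2 lost its call without pair 3 (adjusted p 0.161), and Dpf2 without pair 2 (0.149) or pair 3 (0.209). Smarce1 lost it without pair 1 (0.102), 2 (0.145) or 3 (0.0661), and Bcl7c likewise (0.0919, 0.209 and 0.0745). The block value of Bcl7c was -0.43 without pair 2, and its unpaired value was -0.37 without depleted replicate 2.

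The BAF ATPase genes were not called. Smarca4, which encodes BRG1, had 209, 176 and 178 CPM in depleted libraries, against 181, 150 and 170 CPM in control libraries. It was higher in all 3 pairs with overlapping groups, at a log2 fold change of 0.17 (SE 0.08, edgeR adjusted p = 0.173) in the block fit. Smarca2, which encodes the alternative ATPase BRM, had 0.893, 0.137 and 2.23 CPM in depleted libraries, against 0.837, 1.54 and 2.60 CPM in control libraries. These values rest on 3 to 48 counts per library, and the log2 fold change of -0.96 had an SE of 0.83. Smarcd3, a BAF60 gene of heart and muscle, was also scarce, with 2.23, 0.776 and 3.05 CPM in depleted libraries, against 1.18, 0.626 and 2.76 CPM in control libraries. At 11 to 51 counts per library its log2 fold change of 0.46 had an SE of 0.55. The interval of Smarcd3 is shared in part with Chpf2.

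The core and targeting subunits of BAF held no further call. The log2 fold changes in the block fit were -0.0021 (SE 0.09) for Smarcb1, a core subunit and tumour suppressor, and -0.01 (SE 0.07) for Smarcc1, the scaffold gene used in stem cells. They were 0.16 (SE 0.07) for Arid1a and -0.02 (SE 0.12) for Arid1b, whose products are the DNA-binding arms of canonical BAF. Among the PBAF genes, Arid2 was at 0.08 (SE 0.08), Brd7 at 0.01 (SE 0.10) and the bromodomain gene Pbrm1 at -0.21 (SE 0.07, edgeR adjusted p = 0.0810). Pbrm1 was lower in all 3 pairs. Brd9, the bromodomain gene of non-canonical BAF, was at 0.08 (SE 0.11). Of the remaining shared subunits, Bcl7a was at -0.22 (SE 0.10), Actl6a at 0.07 (SE 0.10), Bcl7b at 0.11 (SE 0.15), Smarcd1 at 0.18 (SE 0.08) and Smarcc2 at 0.19 (SE 0.12), with none called.

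ISWI complexes join the ATPase SNF2H or SNF2L with partner subunits, and 1 of the 6 genes rose. Baz2a, which encodes the TIP5 subunit of the nucleolar remodelling complex, had 595, 564 and 552 CPM in depleted libraries, against 509, 466 and 495 CPM in control libraries. The groups did not overlap, and the block fit gave 0.22 on the log2 scale (SE 0.07, edgeR adjusted p = 0.0492, unpaired 0.584). This call was lost without pair 1 (0.165), 2 (0.157) or 3 (0.124). Smarca5, the gene for SNF2H, had 527, 635 and 532 CPM in depleted libraries, against 471, 512 and 573 CPM in control libraries. It was higher in 2 of the pairs and lower in pair 3, and was not called (log2 fold change 0.12, SE 0.08). Smarca1, the gene for SNF2L, had 9.60, 7.30 and 6.43 CPM in depleted libraries, against 10.7, 13.7 and 12.2 CPM in control libraries. Its groups did not overlap, yet the block log2 fold change of -0.66 was not called, at edgeR adjusted p = 0.0852 (SE 0.23), against 0.413 in the unpaired fit. Bptf, the largest NURF subunit, was at -0.05 (SE 0.08), Baz1a at 0.07 (SE 0.11) and Baz1b at 0.10 (SE 0.07).

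The CHD genes outside NuRD, 6 in number, held no call. Chd1, whose product is needed for the open chromatin of embryonic stem cells, had 272, 352 and 216 CPM in depleted libraries, against 272, 357 and 252 CPM in control libraries. The values were close within each pair but for pair 3 (log2 fold change -0.08, SE 0.07). Log2 fold changes of the others ran from -0.08 for Chd9 to 0.15 for Chd7, the gene mutated in CHARGE syndrome. Chd2, Chd6 and Chd8 lay at -0.07, 0.11 and -0.04, with SE of 0.07 each. The interval of Chd2 includes the long noncoding RNA gene Chaserr.

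Of the INO80, SRCAP and p400 genes, Ino80 fell and 4 were not called. Ino80, the ATPase gene of the INO80 complex, had 222, 230 and 239 CPM in depleted libraries, against 246, 287 and 317 CPM in control libraries. The depleted values were close together and all lay below the control values. The block fit gave a log2 fold change of -0.29 (SE 0.08, edgeR adjusted p = 0.0258) and the unpaired fit one of -0.30 (SE 0.14, edgeR adjusted p = 0.495), and the call was lost without pair 2 (0.0770) or pair 3 (0.163). Srcap, the ATPase gene of the complex that deposits H2A.Z, had 599, 626 and 439 CPM in depleted libraries, against 398, 564 and 521 CPM in control libraries. Pair 3 went the other way from pairs 1 and 2 (log2 fold change 0.17, SE 0.14). Ep400, the gene for p400, had 322, 393 and 341 CPM in depleted libraries, against 284, 315 and 333 CPM in control libraries, higher in all 3 pairs but not called (0.18, SE 0.08, edgeR adjusted p = 0.144). The AAA+ ATPase genes Ruvbl1 and Ruvbl2, whose products form a ring shared by these complexes, were at -0.05 (SE 0.10) and 0.29 (SE 0.09). Ruvbl2 lay just outside the threshold (edgeR adjusted p = 0.0501) and Baz2a just inside it.

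Hells and Smarcad1 encode SNF2 ATPases that work outside these complexes, in DNA methylation and in heterochromatin upkeep. Hells had 419, 549 and 395 CPM in depleted libraries, against 423, 606 and 473 CPM in control libraries. Smarcad1 had 216, 326 and 237 CPM in depleted libraries, against 236, 380 and 294 CPM in control libraries. Both were lower in all 3 pairs with overlapping groups, and neither was called, at log2 fold changes of -0.14 (SE 0.07) and -0.22 (SE 0.07, edgeR adjusted p = 0.0655).

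**Figure D3:**
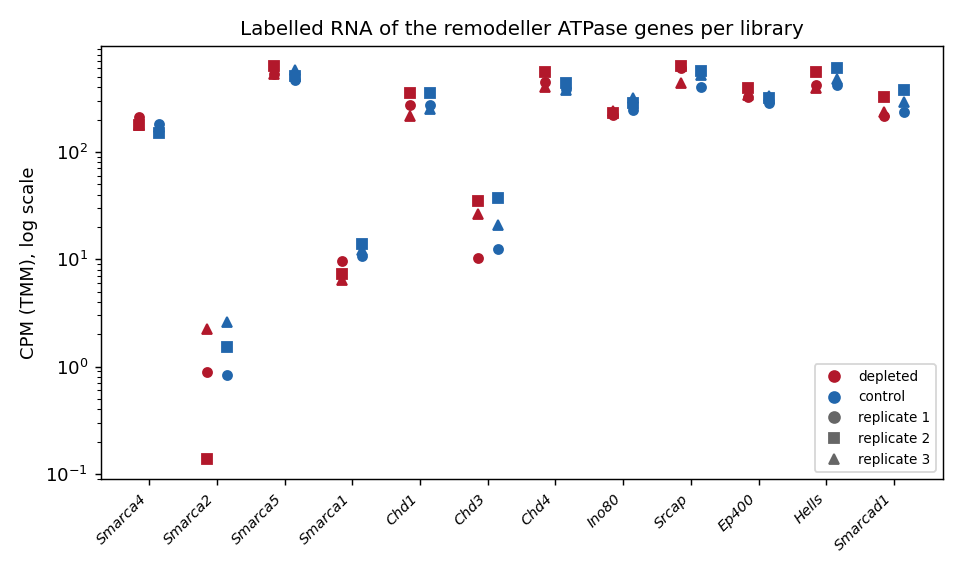
CPM (log scale, not corrected for transcript length) of the 12 ATPase genes Smarca4 to Smarcad1 in each library, depleted in red at left of control in blue, with a marker per replicate number. Red and blue markers overlap for 10 of the genes and are apart for Smarca1 and Ino80, and Smarca2 has the widest scatter.

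The balance between paralogs was read as the log2 ratio of their CPM within each library, for 18 pairs of genes. Not all of these replace one another in a complex, since Ruvbl1 and Ruvbl2, for instance, encode parts of the same ring. Lengths cancel when the ratio is compared between groups. The Mta1 to Mta2 ratio was -2.23, -3.02 and -2.96 in depleted libraries, against -1.28, -1.85 and -1.92 in control libraries. The difference was -1.06 on the log2 scale, lower in depleted libraries, with pair differences of -0.95, -1.17 and -1.04. The Smarca5 to Smarca1 ratio was 5.71, 6.35 and 6.26 in depleted libraries, against 5.40, 5.17 and 5.50 in control libraries, a difference of 0.75. The Bcl7b to Bcl7c ratio was 1.07, 1.27 and 0.98 in depleted libraries, against 0.23, 0.13 and 0.66 in control libraries, a difference of 0.76. These were the 3 of 18 pairs of genes whose groups did not overlap, and 9 of the 18 moved one way in all 3 replicate pairs. The matching shares for gene pairs at large were not computed, so neither count is read as particular to these genes. Each of the 3 had an exact two-sided permutation p of 0.1, with the libraries taken as unpaired. That is the smallest that 3 against 3 libraries allow, and it was 0.6 after adjustment over the 18. The Hdac1 to Hdac2 ratio differed by -0.02, and its values of -0.30 to 0.22 in depleted libraries spanned those of -0.05 to 0.16 in control libraries. The Smarcd1 to Smarcd2 ratio differed by -0.24, -0.20 and -0.26 in the pairs, lower in depleted libraries, with overlapping groups (exact permutation p = 0.2).

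**Figure D4:**
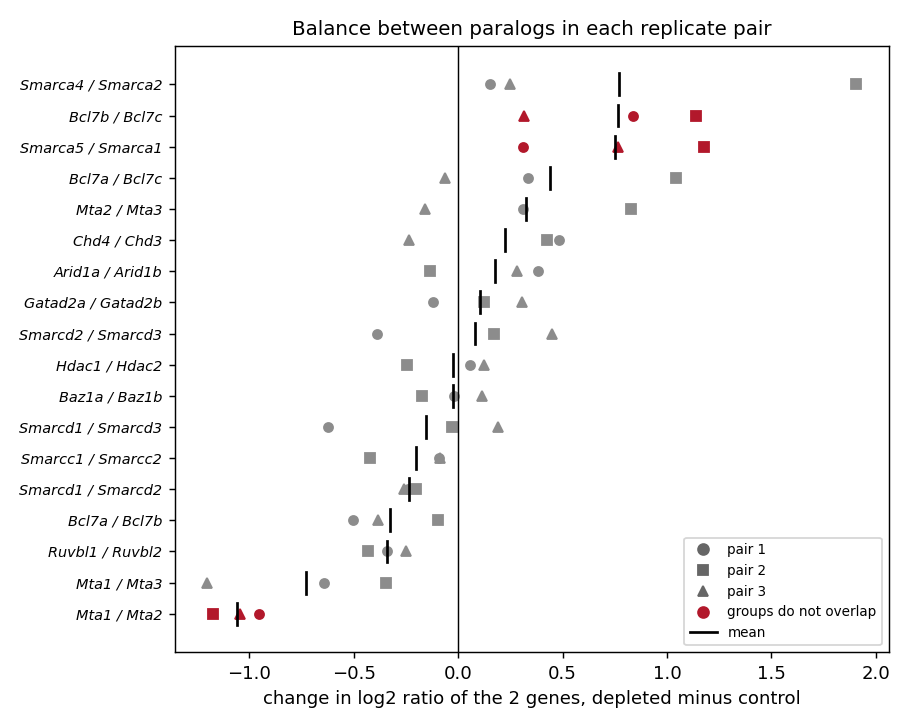
Change in the log2 ratio of 2 paralogs (x axis, depleted minus control) in each replicate pair, for 18 pairs of genes ordered by their mean, which the black bar marks. The 3 points of Mta1 over Mta2 lie together near -1.06, and the pairs in red are those whose depleted and control libraries did not overlap.

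The genomic length of the members had a median of 48.3 kb, from 9.83 kb for Smarcd2 to 353 kb for Arid1b, against a median of 19.0 kb over the 15360 tested genes with a length. Across the 48 members Spearman's rho between length and block log2 fold change was -0.41, and over all 15360 genes it was -0.23. Genes are not independent replicates, and within a library they share its depth, so both are given as a description without a test. In the class of 10 to 30 kb the median was 0.08 for 13 members and 0.04 for all genes. In the class of 30 to 100 kb it was 0.10 for 21 members and -0.07 for all genes, and from 100 kb up it was -0.02 for 13 members and -0.13 for all genes. The members' medians thus did not fall from the class of 10 to 30 kb to that of 30 to 100 kb, where those of all genes did. Of the members that rose, Smarcd2, Mta2 (10.4 kb), Dpf2 (16.4 kb), Smarce1 (22.0 kb) and Baz2a (37.9 kb) were shorter than the members' median, and Gatad2a (89.3 kb) was longer. Of those that fell, Mta1 (39.0 kb) and Bcl7c (47.3 kb) were also shorter than it, and Ino80 (106 kb) was longer.

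**Figure D5:**
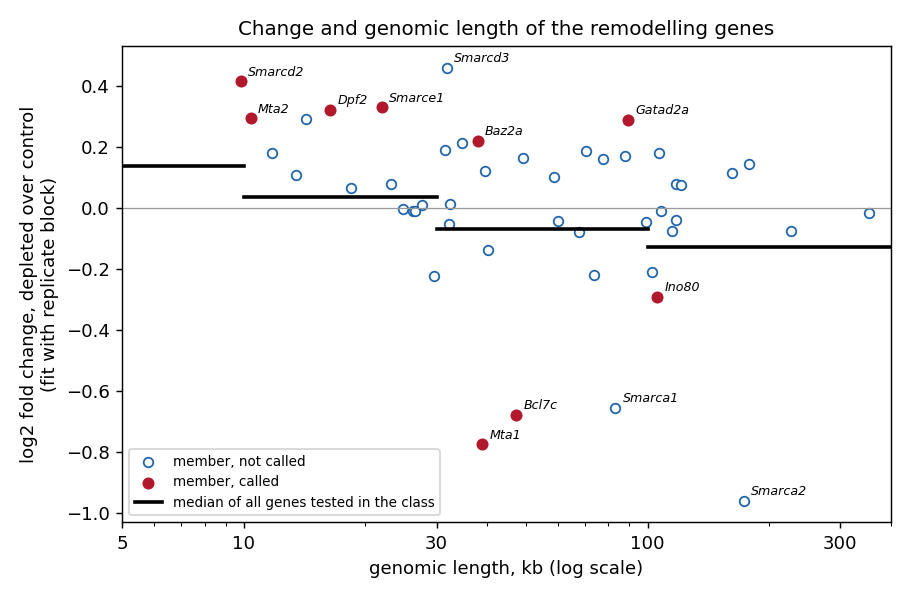
Block log2 fold change (y axis, depleted over control) of the 48 members against genomic length in kb (x axis, log scale), filled where called. Black bars are the medians of all tested genes in 4 length classes, from 0.14 for the shortest to -0.13 for the longest, and Smarcd2, the shortest member, lies above 0.

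In the RefSeq table of GRCm38.p6 the called members lie on chromosomes 2 (Ino80, 119373042 to 119478685), 7 (Bcl7c, 127661454 to 127708766), 8 (Gatad2a, 69907069 to 69996402), 10 (Baz2a, 128091370 to 128129303), 11 (Smarcd2, 106263171 to 106272998, and Smarce1, 99209047 to 99231017), 12 (Mta1, 113098248 to 113137206) and 19 (Dpf2, 5896516 to 5912871, and Mta2, 8941920 to 8952300). Baz2a shares its interval with Gm51821 and Mta2 with Gm10353, while the RefSeq table lists no gene overlapping Mta1, Ino80, Smarcd2, Smarce1, Dpf2 or Gatad2a. Among uncalled genes given by library, Chd1, Chd3, Chd4, Srcap, Ep400, Smarca2 and Smarcd3 also overlap another gene of that table.

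Spread between replicates was wide for some members and followed the replicate number. Chd3 differed 3.24-fold between the highest and the lowest depleted library and 2.89-fold between control libraries, with replicate 2 highest and replicate 1 lowest in both groups. Mta1 differed 2.12-fold among depleted and 2.26-fold among control libraries, with replicate 1 highest and replicate 2 lowest in both. Replicate 2 was the highest library of both groups for 17 of 48 members (35.4%), against 23.8% of all tested genes, and the lowest of both for 13 (27.1%), against 26.0%. Summed over all members, levels were 10633, 11177 and 9667 CPM in depleted libraries, against 9763, 10648 and 9825 CPM in control libraries. These sums overlapped. Only the NuRD sum was without overlap among the 6 families, at 1720, 1724 and 1587 CPM in depleted libraries, against 1554, 1502 and 1439 CPM in control libraries. Such a sum is weighted towards genes with high CPM. The median block log2 fold change of the 9 NuRD genes was 0.01, with 5 above 0 and 4 below.

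Among 58 other genes of these complexes and of lone SNF2 ATPases, 56 were tested, and Dpf3 and Actl6b had too few counts. The block fit called 3 higher and 3 lower, 10.7% of the 56 against 12.9% of all genes. The unpaired fit called 0, with 3 at an unadjusted p under 0.05 (5.36%, against 10.9% of all genes). The share called either way in the block fit and that at an unadjusted p in the unpaired fit were below those of all genes. At an unadjusted p under 0.05 the block fit held 18 of the 56, a share above the 27.9% of all genes. By direction, 5.36% were called higher and 5.36% lower in the block fit, against 4.96% and 7.90% of all genes. The list's median was 0.03 in the block fit, against 0.07 for the 48 members and 0.02 for all genes. Zranb3, whose product remodels stalled replication forks, had 8.44, 17.4 and 14.3 CPM in depleted libraries, against 19.3, 47.5 and 45.2 CPM in control libraries, a 2.71-fold fall in the block fit (edgeR adjusted p = 1.33e-04, unpaired 0.146). DESeq2 called it without the pairs as well (adjusted p = 0.00804). The interval of Zranb3 overlaps Gm28800, Gm8283 and Rpl28-ps1. Brd8, a bromodomain subunit gene of the p400 complex, had 247, 277 and 206 CPM in depleted libraries, against 312, 397 and 281 CPM in control libraries (block log2 fold change -0.44, SE 0.07, edgeR adjusted p = 0.00217, unpaired 0.399). Its interval overlaps Kif20a and Gm41688. Epc1, a scaffold gene of the same complex, fell 1.25-fold. Those that rose were Trrap, the large scaffold gene of p400 and other acetyltransferase complexes, by 1.22-fold, Actb by 1.27-fold and the NuRD-associated gene Cdk2ap1 by 1.28-fold. Zranb3 and Brd8 kept their calls with any pair left out. Trrap lost its call without pair 1 (0.0727), 2 (0.0690) or 3 (0.0756), Epc1 without pair 2 (0.148) or 3 (0.166), Cdk2ap1 without pair 1 (0.114) or 3 (0.119), and Actb without pair 3 (0.0657).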

How the data were processed

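Per the labels' protocols, biotin was attached to the 4sU-labelled RNA, streptavidin beads enriched it, and a Vazyme kit served for the libraries. Per the submitters' processing notes, the build was mm10 and the tools were DESeq2 1.42.0, StringTie 2.2.1 and HISAT2 2.2.1, with no role stated. The deposited table holds estimated counts per gene, given as whole numbers, so no rounding was needed. How reads of overlapping genes or copies were divided, and whether strand was used, is not given in the sources used here.

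edgeR 4.0.16 (under R 4.3.3) tested the counts after filterByExpr and TMM scaling. Its robust quasi-likelihood test ran over all 6 libraries with Benjamini-Hochberg adjustment, without a block and with the replicate number as a block. SE is the fold change over the root of F. DESeq2 1.42.0, RLE and upper-quartile scaling, no filter and left-out libraries were alternatives. Log2 ratios per library used CPM + 0.5.

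Both groups carry replicate numbers 1 to 3 in the titles, without a statement of what a number marks. Deviations from the group mean in log2 CPM correlated at 0.268, 0.387 and 0.321 for libraries sharing a number, and at -0.265 to -0.025 otherwise, which was read as pairing. Deviations within a group sum to 0, which lowers the other values. The labels do not name separate cultures, and the p-values then cover only the spread among these 6 libraries, which may be technical.

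All 48 members matched the RefSeq gene table of GRCm38.p6 by symbol for coordinates, genomic length and overlaps, and 38 had a sequence in the RefSeq promoter table. Transcript lengths were not used, so levels of different genes were not compared. Members and lists were chosen with earlier results of these data known. Library values are given for members called in either fit, for 12 ATPase genes and for the 3 uncalled members with the largest absolute block fold change. The choice of promoters among called members was made after their values were seen, as was that of the paralog pairs and of the 1.2-fold bound. An alternative called added was also chosen after seeing the data.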

Additional observations from a re-analysis of the deposited data

How the results depend on the processing

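Among all genes, 137 were lower and 2 higher in the unpaired edgeR fit, 1388 and 871 with the replicate block, and 579 and 62 by DESeq2 without it. Leaving out 1 library from the unpaired fit left 0 to 1 lower and 0 to 1 higher, and leaving out a pair from the block fit left 927, 1016 and 699 lower and 491, 412 and 250 higher (pairs 1, 2 and 3). Of the 48 members, 0 were called in either direction in the unpaired fit, also with RLE or upper-quartile scaling, no filter, DESeq2 or any library left out. The replicate block gave 3 lower and 6 higher, and with a pair left out 1 to 2 lower and 0 to 2 higher. Added after seeing the data, the replicate block with RLE scaling gave 3 lower and 8 higher, with upper-quartile scaling 5 and 8, and with DESeq2 3 and 9. Calls over all 17573 genes also grew in these settings, to 2438, 2475 and 2538, from 2259 in the block fit. Both scalings kept all 9 members of the block fit, and DESeq2 kept 8, without Bcl7c (adjusted p = 0.0544). The other remodelling genes had 0 and 0 calls in the unpaired fit, 3 lower and 3 higher with the block, 1 lower by DESeq2, and 2 to 3 lower and 0 to 2 higher in the block fit with a pair left out. The members' median of 0.07 was 0.0076 without depleted replicate 2, 0.02 without control replicate 3 and 0.03 without depleted replicate 1, and up to 0.063 without another library. Each scaling moved the median of all genes to between 0.01 and 0.04, and the 9 called members kept their sign in every alternative run. Among named members, the sign turned for Chd3, near 0 in the unpaired fit at 0.02, to -0.010 with the block, -0.0031 with upper-quartile scaling and -0.020 with both. Without single libraries Chd3 ran from -0.36 to 0.51, Chd1 from -0.26 to 0.10, Hells from -0.30 to 0.020 and Smarcd3 from -0.0017 to 1.14. In the block fit with a pair left out Chd3 ran from -0.19 to 0.11 and Srcap from -0.049 to 0.36. None of these 5 genes was called, and the cause was not tested. Depth limits the scarce members most: Smarca2 rested on 3 to 48 counts per library and Smarcd3 on 11 to 51.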
